A study of Mus musculus with 3 samples.

Results

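Transcripts of 8 aquaporin genes and of the vasopressin V2 receptor were followed in mouse kidney. The 9 genes, Aqp1, Aqp2, Aqp3, Aqp4, Aqp6, Aqp7, Aqp8, Aqp11 and Avpr2, were taken by their platform symbols. Each had 1 probe set, and together they are 9 of 19938 genes measured. RNA of whole kidney from female CBL/6 mice of 8 to 10 weeks was read on 3 Affymetrix Mouse Gene 1.0 ST arrays. The NTS/PGE2 array held kidney of mice given nephrotoxic serum (NTS), sheep antibodies that lodge in glomeruli and set off nephritis. The dose was 13.5 ug for each g of body weight, followed by prostaglandin E2 (PGE2) each day from day 2 at 5 ug per g. The NTS array held kidney of mice given the serum alone, and the control array kidney of non-treated mice. The labels give day 7 as the day of sacrifice for both serum groups and no day for control. They do not state whether an array pools animals.

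With 1 array per group there was no replicate error and no test was run. Treatment, animal and array cannot be told apart, and with 3 arrays the precision of each value is limited. A gene was counted as different where the log2 values of 2 arrays differed by at least 1, which is 2-fold, and where the brighter of both arrays was at or over its own median across probe sets. The array medians were 7.14 for NTS/PGE2, 7.11 for NTS and 7.11 for control. The only measure of error came from genes read by a pair of bright probe sets. From the gap within such pairs, the log2 difference of a single probe set had an SD of 0.19 in NTS against control, of 0.19 in NTS/PGE2 against NTS, and of 0.12 where NTS/PGE2 was set against control. It holds no spread between animals.

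Aquaporins are membrane channels that let water, and in some members glycerol, pass down its gradient. In the kidney, AQP1 carries most water reabsorption in the proximal tubule and the descending thin limb, and AQP2 is the regulated channel of collecting duct principal cells. Vasopressin binds the V2 receptor on those cells, raises cAMP, and through protein kinase A brings AQP2 to the apical membrane and raises transcription of its gene. AQP3 and AQP4 form the basolateral exit of the same cells. PGE2 is known to modulate the response of the collecting duct to vasopressin through its own receptors.

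The upstream sequences of 3 of these genes are shown because the cAMP pathway acts on Aqp2 transcription through a cAMP response element in its promoter, and because Aqp2, Aqp3 and Aqp1 differed in how far the serum and control arrays lay apart. They are the 250 bases before the RefSeq start site on GRCm38.p6, with the plus strand at chr15:99578806-99579055 for Aqp2, the minus strand at chr4:41098184-41098433 for Aqp3 and the plus strand at chr6:55336049-55336298 for Aqp1. Capitals mark matches on either strand to 3 motifs. The core of the cAMP response element is TGACGT. The motif of the GATA factors, of which GATA3 is made in principal cells, was searched as GATAAG. The TATA box was searched as TATAAA. Aqp4, the member that differed most between the serum and control arrays, had no window searched.
Aqp2: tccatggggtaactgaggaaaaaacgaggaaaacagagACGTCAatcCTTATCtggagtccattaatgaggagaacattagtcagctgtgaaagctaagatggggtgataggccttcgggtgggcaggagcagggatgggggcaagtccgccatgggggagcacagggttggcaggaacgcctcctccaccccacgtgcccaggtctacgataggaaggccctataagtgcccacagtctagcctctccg
Aqp3: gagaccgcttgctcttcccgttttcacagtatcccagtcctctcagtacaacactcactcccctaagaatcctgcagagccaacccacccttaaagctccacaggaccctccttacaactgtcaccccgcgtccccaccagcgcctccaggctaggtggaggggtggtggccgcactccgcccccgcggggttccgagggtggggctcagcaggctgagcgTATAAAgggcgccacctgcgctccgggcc
Aqp1: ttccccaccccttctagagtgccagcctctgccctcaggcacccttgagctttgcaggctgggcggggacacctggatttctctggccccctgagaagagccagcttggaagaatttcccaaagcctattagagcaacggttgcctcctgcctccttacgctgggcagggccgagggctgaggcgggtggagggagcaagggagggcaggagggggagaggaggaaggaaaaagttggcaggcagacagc

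The Aqp2 window held TGACGT at bases 212 to 207 before the start and GATAAG at bases 203 to 198, both on the strand opposite to the gene, so they read as their reverse complements. TGACGT was present in 6.47% and GATAAG in 6.55% of 32807 upstream windows of the same length. The Aqp3 window held TATAAA at bases 29 to 24 before the start, a motif found in 12.4% of windows. The Aqp1 window held none of the 3. The full palindrome TGACGTCA, present in 1.55% of windows, and TGANTCA, an AP-1 motif present in 6.76%, were in none of the 3 windows printed. Outside the printed windows, GATAAG was also at bases 131 to 126 of an Aqp7 window, and TATAAA at bases 45 to 40 for Avpr2. These are matches of letters, and binding was not measured. A link between a motif and the array differences was not tested.

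All 9 genes read lower in NTS kidney than in control kidney as deposited, though Aqp3 and Aqp8 did not once arrays were centred on tubule genes. By 2-fold or more, 7 were lower: Aqp4, Aqp2, Avpr2, Aqp1, Aqp11, Aqp6 and Aqp7. Of these, Aqp4 and Avpr2 were under the NTS array's median and passed the filter through the control array. Where both values had to reach the median, 5 of 6 members were 2-fold lower, as were 473 of 10986 genes. Among the 11778 genes bright enough to be compared, 5.42% stood lower by that much and 2.7% stood higher by that much. The median of the 9 log2 differences was -1.15, against 0 over all genes compared. On the NTS/PGE2 array all 9 read higher than on the NTS array as deposited, 5 of them by 2-fold or more, and with the same centring Aqp3 and Aqp8 read lower. Where both values had to reach the median, 3 of 6 members were 2-fold higher, as were 377 of 10933 genes. Of 11699 compared genes, 4.15% were higher by that much and 3.28% lower. Their median difference was 1.05, against 0 over all genes compared. Between NTS/PGE2 and control none of the 9 differed 2-fold. Of 11534 compared genes, 0.0607% were higher and 0.659% lower by that much. These comparisons share arrays, so they are not independent of each other. In whole kidney, fewer cells of a type and less RNA per cell cannot be told apart.

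**Figure D1:**
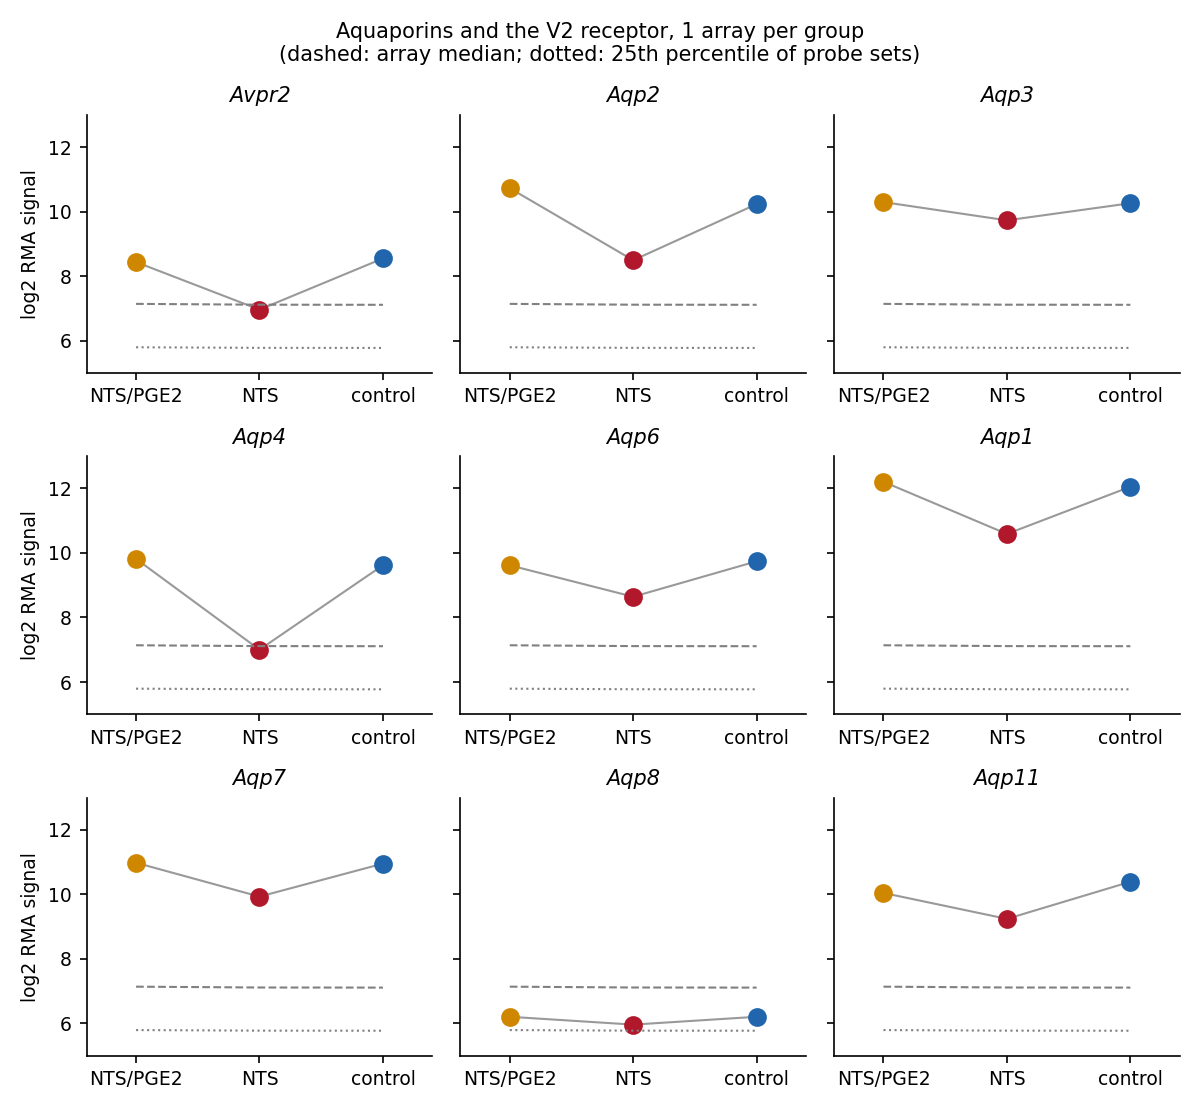
Log2 RMA signal (vertical axis) of the V2 receptor gene and 8 aquaporin genes on the NTS/PGE2, NTS and control arrays, with 1 point per array. The dashed line is the array median and the dotted line its 25th percentile. As deposited, every gene is lowest on the NTS array (with tubule centring Aqp3 and Aqp8 are not), and Aqp8 lies under the dashed line on all 3.

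The receptor is described first. Avpr2, the V2 receptor gene on the X chromosome, had a log2 value of 8.44 in NTS/PGE2 kidney, 6.96 in NTS kidney and 8.55 in control kidney. The NTS value was under the array's median and the other 2 were above it. The receptor's signal on the NTS array was thus 33.3% of that on the control array, a log2 difference of -1.59, and 2.11% of compared genes stood as low or lower. NTS/PGE2 stood 1.47 above NTS, or 2.78-fold, and its difference from control was -0.11.

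Of the other genes of the vasopressin and oxytocin receptor family, Avpr1a, the V1a receptor, read 7.91, 7.81 and 8.28 on the NTS/PGE2, NTS and control arrays, so its NTS difference from control was -0.47. Avpr1b, the V1b receptor of the pituitary, had the same value of 6.32 throughout, under every array's median. Oxtr, the oxytocin receptor, was below the median on all 3 arrays as well, at 6.92, 6.81 and 6.66 in the same order. All 3 were named after their values were seen. Avpr2 was the one gene of the 4 with a 2-fold difference, and the difference between genes was not tested.

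Aqp2, the vasopressin-regulated apical channel, read 10.73 in NTS/PGE2 kidney, 8.49 in NTS kidney and 10.23 in control kidney. Its NTS signal was 29.9% of control, a log2 difference of -1.74, and 1.63% of compared genes stood as low or lower. The NTS/PGE2 value was 2.23 above NTS on the log2 scale, or 4.70-fold. It was also 0.49 above control, or 1.41-fold, a difference that 0.884% of compared genes reached or passed. Aqp2 was the member farthest above its control value on the NTS/PGE2 array, and the difference was larger than the probe set SD of 0.12. In size, so were those of Aqp11 at -0.35, Aqp4 at 0.20 and Aqp1 at 0.15, and that of Aqp6 at -0.12 about equalled the SD.

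Aqp4, a basolateral channel of principal cells that is also made in the proximal straight tubule of the mouse, differed most of the 9. It read 9.82 in NTS/PGE2 kidney, 7.00 in NTS kidney and 9.62 in control kidney. The NTS value lay at percentile 48.1 of its array and the control value at percentile 84.7. The NTS signal was 6.14-fold below control, a log2 difference of -2.62, and 0.425% of compared genes stood as low or lower. The NTS/PGE2 array stood 7.04-fold above NTS and 0.20 above control on the log2 scale.

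Aqp3, the basolateral channel that also passes glycerol and urea, differed least among the principal cell members. It read 10.29 in NTS/PGE2 kidney, 9.73 in NTS kidney and 10.26 in control kidney. The NTS difference from control was -0.53, short of the 2-fold rule, and 13.5% of compared genes stood as low or lower. NTS/PGE2 stood 0.57 above NTS and 0.03 above control. The 4 principal cell members therefore spread over log2 differences of -0.53 to -2.62 for NTS against control on the same arrays.

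Aqp6, an intracellular channel of intercalated cells that conducts anions, read 9.62 in NTS/PGE2 kidney, 8.64 in NTS kidney and 9.74 in control kidney. It was 2.14-fold lower in NTS kidney than in control kidney. NTS/PGE2 stood 0.97 above NTS, just under the 2-fold rule, and -0.12 from control. Aqp2, Aqp5 and Aqp6 follow one another on chromosome 15 in the GRCm38.p6 annotation. Aqp5, the channel of glands and lung that lies between the other two, read 7.23, 7.23 and 7.15 on the NTS/PGE2, NTS and control arrays, so it was near the array median throughout, and its largest difference was 0.08. The next gene beyond Aqp6, Racgap1, a cytokinesis gene named after its values were seen, stood on the opposite side: 6.40 in NTS/PGE2 kidney, 7.57 in NTS kidney and 6.40 in control kidney.

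Aqp1, the channel of the proximal tubule, descending thin limb and descending vasa recta, was bright on every array. It read 12.21 in NTS/PGE2 kidney, 10.59 in NTS kidney and 12.05 in control kidney, and even the NTS value lay at percentile 92.1 of its array. The NTS signal was 36.3% of control, a log2 difference of -1.46. NTS/PGE2 stood 1.62 above NTS, or 3.07-fold, and 0.15 above control. AQP1 is also made by red cells and endothelium. Of 9 erythrocyte genes listed, 3 had a single-gene value here, and the listed globin genes had none. The mean log2 value of these 3 was 7.97 on NTS/PGE2, 7.43 on NTS and 8.29 on control. Among them, 1 was under the median on every array, and 1 other passed the rule. The gene that passed was Alas2, of heme synthesis, which read 9.07, 7.27 and 10.02 in that order. Of 14 endothelium and vasa recta genes, 9 stood 2-fold or more below control on the NTS array, and the median was -1.31. The mean of these 14 was 9.62 on NTS/PGE2, 8.51 on NTS and 9.80 on control, and the angiopoietin receptor gene Tek had the largest difference, at -2.26. The part of these cells in the Aqp1 difference was not tested.

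Aqp7, the glycerol channel of the proximal straight tubule and of fat cells, read 10.98 in NTS/PGE2 kidney, 9.93 in NTS kidney and 10.95 in control kidney. Its NTS signal was 49.2% of control, at a log2 difference of -1.02 just past the rule. With the 3 arrays quantile-normalized once more it was -0.99 and no longer 2-fold. NTS/PGE2 stood 1.05 above NTS and 0.03 above control.

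Aqp11, a channel of the endoplasmic reticulum in proximal tubule cells whose loss gives cystic kidneys in mice, read 10.04 in NTS/PGE2 kidney, 9.24 in NTS kidney and 10.39 in control kidney. It was 2.22-fold lower on the NTS array than on control. NTS/PGE2 stood 0.80 above NTS and was still below control, at -0.35, a difference that 6.13% of compared genes reached or passed downward. Aqp11 was the member farthest below control on the NTS/PGE2 array. Aqp8, a channel that also passes ammonia and hydrogen peroxide, read 6.21 in NTS/PGE2 kidney, 5.96 in NTS kidney and 6.21 in control kidney. It was below the median of all 3 arrays, did not pass the filter and may be background. Its NTS/PGE2 and control values were exactly equal, as happens often after RMA, and equal values are no evidence of an unchanged gene.

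**Figure D2:**
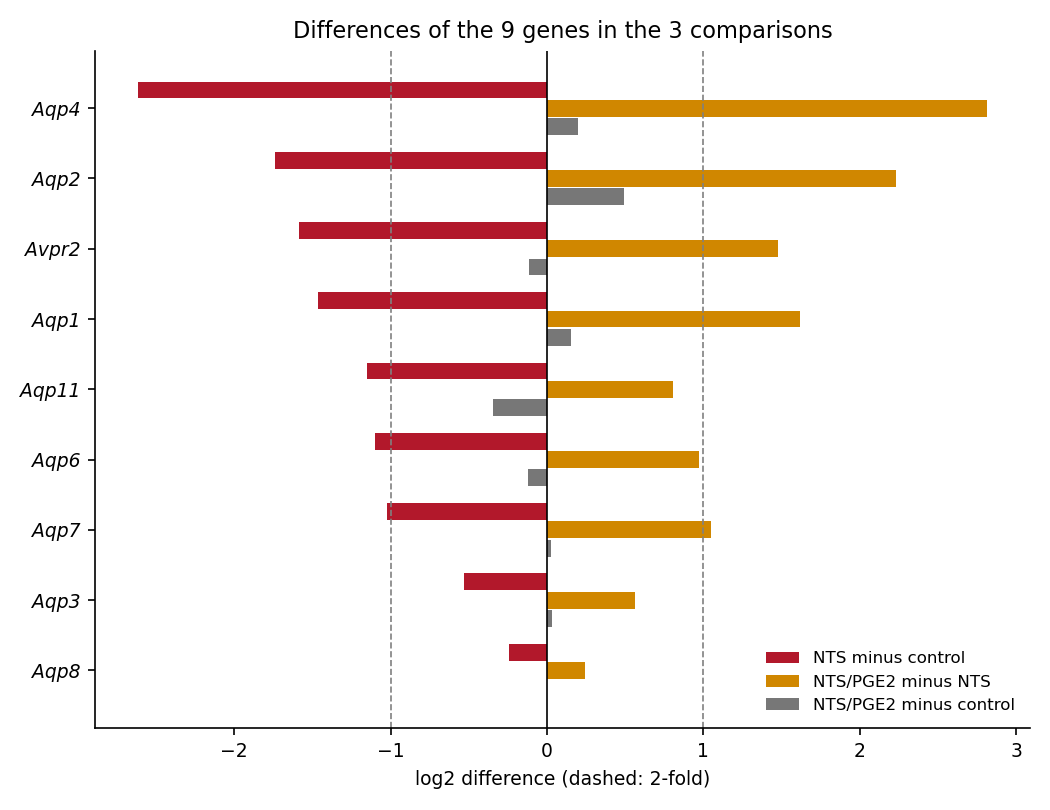
Log2 differences (horizontal axis) of the 9 genes for NTS minus control, NTS/PGE2 minus NTS and NTS/PGE2 minus control, with 1 array per group and dashed lines at 2-fold. Aqp4 has the longest bars, at -2.62 and 2.82, and no bar of NTS/PGE2 minus control reaches a dashed line.

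The order of the NTS differences from control, lowest first, was Aqp4, Aqp2, Avpr2, Aqp1, Aqp11, Aqp6, Aqp7, Aqp3 and Aqp8. Neighbours in that order from Aqp2 to Avpr2, Avpr2 to Aqp1, Aqp11 to Aqp6 and Aqp6 to Aqp7 lay closer together than the probe set SD of 0.19. That SD is of a single probe set, and a gap between genes carries the error of both. The order of the remaining neighbours was not tested either. Of the other 4 genes of the family, Aqp9, the glycerol channel of liver, was at 5.45 on all 3 arrays. Mip (Aqp0), of the lens, and Aqp12, of the pancreas, had equal values on the NTS and control arrays, and both lay under the median on each array. Mip read 6.09 in NTS/PGE2 kidney against 5.90 in NTS kidney, and Aqp12 read 6.95 against 6.82.

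Members were next set beside markers of the cells known to hold them. Of 12 principal cell genes, 2 stood at least 2-fold below control on the NTS array, 0 were higher by that much, and the median was -0.42. The 2 were Hsd11b2, which protects the mineralocorticoid receptor from glucocorticoids, at -1.64, and the transcription factor gene Tfap2b at -1.14. Elf5, a transcription factor of principal cells, had a difference of -0.76. Aqp2 and Aqp4 lay below all 12, Avpr2 below 11 and Aqp3 below 7. Scnn1b, a subunit of the epithelial sodium channel named after its values were seen, read 9.86 on all 3 arrays.

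On the NTS/PGE2 array 3 of the 12 principal cell genes were at least 2-fold above NTS, with a list median of 0.16. Aqp2, Aqp4 and Avpr2 lay above all 12, and Aqp3 above 9. For NTS/PGE2 against control, the list median was -0.30, and Aqp2 lay above 11 of the 12 and below 1. In that comparison Aqp4 and Aqp3 each lay above 10, and Avpr2 above 7. Tfap2b stood 1.41 above NTS, while Elf5 read 6.66 in NTS/PGE2 kidney, 6.89 in NTS kidney and 7.64 in control kidney and so was low on both serum arrays.

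Of 14 intercalated cell genes, 6 passed the rule downward on the NTS array. Their median difference was -0.92. Among them were Slc4a1, the basolateral anion exchanger, at -1.85, Rhcg, an ammonia channel, at -1.83, and Insrr, an alkali-sensing receptor, at -1.69. Aqp6, at -1.10, lay 0.17 below the list's median. Of 18 proximal tubule genes, 12 did so, and their median was -1.21. The largest differences were those of Gatm, of creatine synthesis, 7.60-fold lower, the organic anion transporter Slc22a8 at -2.31 and Miox of inositol breakdown at -1.99. Aqp1 lay 0.26 below that median, while Aqp11 and Aqp7 lay 0.06 and 0.18 above it. Aqp4, also made in the proximal straight tubule, was at -2.62, inside the range of these 18 genes of -2.93 to 0.

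The arrays were also centred on the median of these 44 tubule genes, which sat 0.69 lower on the NTS array and 0.11 higher on the NTS/PGE2 array than on control. Relative to them, Aqp4 at -1.92 and Aqp2 at -1.05 were the members still 2-fold lower on the NTS array. Avpr2 was then at -0.89, Aqp1 at -0.77, Aqp11 at -0.46, Aqp6 at -0.41 and Aqp7 at -0.33, and Aqp3 at 0.16 and Aqp8 at 0.45 changed sign. When NTS/PGE2 was compared with NTS on the same scale, Aqp4 at 2.01 and Aqp2 at 1.43 were still past 2-fold. Aqp1 at 0.82, Avpr2 at 0.67 and Aqp7 at 0.25 no longer were. Aqp6 was at 0.17 and Aqp11 at 0.00, and Aqp3 at -0.24 and Aqp8 at -0.56 changed sign. Between NTS/PGE2 and control, Aqp3 and Aqp7 turned to -0.07 and -0.08, each within the probe set SD of 0. The 44 genes pooled the principal cell, intercalated cell and proximal tubule lists, whose medians differed. Relative to the principal cell median alone, the NTS difference from control was -1.16 for Avpr2, -1.32 for Aqp2, -2.20 for Aqp4 and -0.11 for Aqp3. For NTS/PGE2 against NTS it was 1.32 for Avpr2, 2.08 for Aqp2, 2.66 for Aqp4 and 0.41 for Aqp3.

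**Figure D3:**
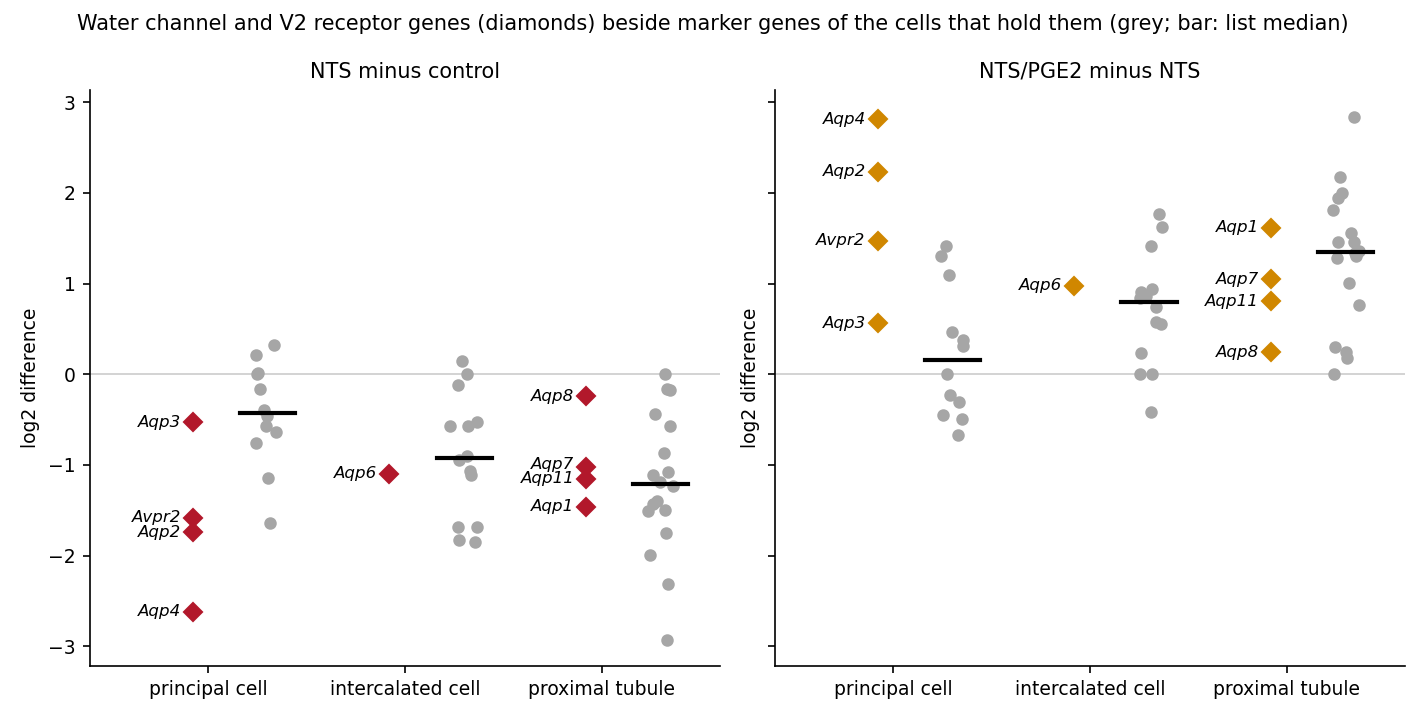
Log2 differences (vertical axis) of the V2 receptor and aquaporin genes (diamonds, left in each column) and of marker genes of principal cells, intercalated cells and the proximal tubule (grey points, bar at the list median), for NTS minus control and NTS/PGE2 minus NTS. Aqp2 and Aqp4 lie outside the range of the 12 principal cell markers in both panels, while Aqp6, Aqp1, Aqp7 and Aqp11 lie within the range of their lists. Aqp4, also made in the proximal straight tubule, lies within the range of the proximal tubule markers in both panels.

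Of the cAMP signalling list, 20 genes were measured, among them the receptor genes Avpr1a, Avpr1b and Oxtr described above. Gnas and Prkaca, also listed, had no single-gene value here. Over all genes compared, 5.42% were 2-fold lower on the NTS array than on control and 2.7% higher. The median of the 20 was -0.11, and 18 of them were bright enough. Near those shares, 1 passed the rule downward and 0 upward. That gene was Prkar2b, a regulatory subunit of protein kinase A, which read 7.15 in NTS/PGE2 kidney, 6.46 in NTS kidney and 10.21 in control kidney. It was thus low on both serum arrays, unlike Avpr2. Creb1, a transcription factor activated by protein kinase A, read 9.31, 8.17 and 9.14 on the NTS/PGE2, NTS and control arrays, and its NTS difference of -0.97 was just under 2-fold. The cAMP phosphodiesterase Pde3b read 8.20, 8.49 and 8.89 in the same order. Adcy6, an adenylyl cyclase that serves the V2 receptor in the collecting duct and was named after its values were seen, read 10.12 in NTS/PGE2 kidney, 9.53 in NTS kidney and 9.67 in control kidney.

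Of 21 measured genes that carry, anchor or degrade the AQP2 protein, 0 were 2-fold different in any of the 3 comparisons, and the median of NTS minus control was -0.02. The largest differences were in Ezr, a linker of membrane to actin, at 0.72, Snap23, a fusion protein of AQP2 vesicles, at -0.64, and Vta1 of the endosomal sorting pathway at -0.64. On the NTS/PGE2 array these 3 genes differed from control by -0.06, -0.08 and -0.22. The AQP2 protein and its phosphorylation were not measured.

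Water reabsorption also needs the salt and urea gradient of the medulla. Of 14 genes for that gradient, 5 passed the rule downward on the NTS array. The median was -0.30. The potassium channel Kcnj1 was at -1.94, the urea transporter Slc14a1 of vasa recta and red cells at -1.73 and the claudin gene Cldn10 was 2.83-fold lower. On the NTS/PGE2 array Kcnj1 and Cldn10 stood 0.18 and 0.18 above control, while Slc14a1 stayed at -0.55. Slc14a2, the vasopressin-regulated urea transporter of the inner medulla, named after its values were seen, read 7.87 in NTS/PGE2 kidney, 7.98 in NTS kidney and 8.47 in control kidney, so its NTS/PGE2 value was the lowest of the 3, where that of Aqp2 was the highest.

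Genes induced by hypertonicity through the factor NFAT5 were also read. None of the 8 measured was 2-fold different between NTS and control, where 5.42% of all genes compared were lower and 2.7% higher. Against NTS, 3 passed the rule upward on the NTS/PGE2 array. The inositol transporter Slc5a3 read 12.21 in NTS/PGE2 kidney, 10.60 in NTS kidney and 11.31 in control kidney. The heat shock gene Hspa1a, a close copy of Hspa1b, read 10.31, 8.96 and 9.70 in the same order, so its value may hold both. The betaine transporter Slc6a12, the other of these 3 and named after its values were seen, read 8.09, 6.91 and 7.49 in that order. S100a4, a calcium-binding protein, was instead brightest in NTS kidney, at 6.60, 7.21 and 6.56. Between NTS/PGE2 and control the median of the 8 differences was 0.31, against 0 over all genes compared, and the highest was 0.90. All 8 were above 0, as were 3558 of the 11534 genes compared, but those of Hspa4l, Nfat5 and S100a4, at 0.01, 0.02 and 0.04, were smaller than the probe set SD of 0.12, and S100a4 did not pass the filter.

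For Aqp7, 10 genes of glycerol and lipid handling were measured. Gpd1, glycerol-3-phosphate dehydrogenase, was at -1.56 for NTS against control, and Tkfc, which phosphorylates dihydroxyacetone and glyceraldehyde, was at -0.96. Plin2, a lipid droplet coat gene, went the other way: it read 11.04 in NTS/PGE2 kidney, 13.18 in NTS kidney and 10.99 in control kidney.

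Marker genes of fat and urothelium also differed between the arrays. Of 12 fat genes, 8 passed the rule downward on the NTS/PGE2 array and 9 on the NTS array, each against control; their mean log2 value was 7.37 on NTS/PGE2, 7.41 on NTS and 9.85 on control. The brown fat gene Ucp1 read 5.91, 5.72 and 11.84 in that order, Retn read 6.85, 6.60 and 11.58, and Adipoq read 4.88, 4.70 and 9.18. Not every fat gene had this pattern: Lpl read 11.75, 10.03 and 11.77, Plin4 7.35, 9.27 and 8.31, and Lep 5.65, 5.62 and 5.65, all 3 named after their values were seen. Aqp7, which is also made in fat, read 10.98 on NTS/PGE2, 9.93 on NTS and 10.95 on control, and the part of fat in these values was not tested. Prkar2b, also abundant in fat, was dim and bright on the same arrays as these genes, and their part in its difference was not tested.

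Urothelium expresses Aqp3. Of 14 urothelium genes, 6 passed the rule downward on the NTS/PGE2 array; on the NTS array 5 passed it downward and 1 upward, each against control. Their mean log2 value was 7.15 on NTS/PGE2, 7.80 on NTS and 8.43 on control. Psca read 6.29, 6.85 and 10.09 in that order, and Upk1b read 6.25, 6.75 and 9.05. Sprr1a, a cornified envelope gene, was low on NTS/PGE2 alone, at 8.36, 11.60 and 11.45, as was Krt19, a keratin gene named after its values were seen, at 6.56, 8.87 and 8.77. Aqp3 read 10.29, 9.73 and 10.26 in that order, and the part of urothelium in these values was not tested. Skeletal muscle, which makes Aqp4, gave 9 measured genes, 6 of them below the median on all 3 arrays, and none differed 2-fold in any comparison.

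**Figure D4:**
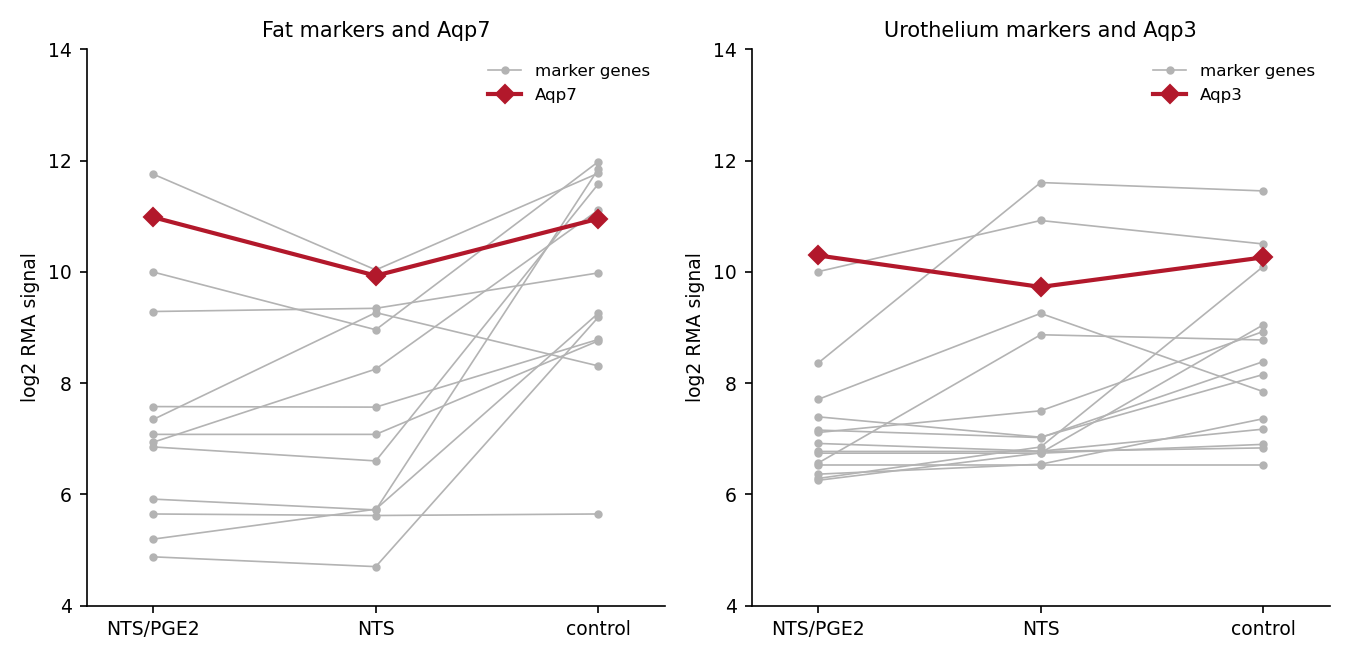
Log2 RMA signal (vertical axis) of 12 fat genes with Aqp7 and of 14 urothelium genes with Aqp3 on the NTS/PGE2, NTS and control arrays, 1 array per group. Many grey marker lines are highest on the control array. Aqp7 and Aqp3 have nearly the same height on NTS/PGE2 as on control.

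Likeness of pattern was measured as the Euclidean distance between the pairs of log2 differences from control, over 3 arrays and 11281 other genes. The 5 genes nearest to Aqp2 were Sec14l3, Egfl6, Pagr1a, Serpina1c and Mpv17l, at distances of 0.17 to 0.21. For Aqp1 they were Dkk2, Kl, Chordc1, Cldn10 and Hoxc6, at 0.04 to 0.05. For Avpr2 they were Pbld1, Slc22a18, Upb1, Ifitm1 and Fbp1, at 0.02 to 0.10. Among the members Aqp1 was nearest to Aqp2, at rank 32 and a distance of 0.44, followed by Avpr2 at rank 107 and 0.62. Aqp4 was at rank 378 and 0.93. A set of 3 arrays carries little to tell patterns apart.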

How the data were processed

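The deposited log2 values came from Affymetrix Expression Console and its RMA method, according to the submitters' processing notes. Versions and genome build: not given in the sources used here. As deposited by the authors, the log2 values had thus passed RMA, which corrects background, equalises the arrays' probe distributions and summarises probes by median polish. That last step can set small differences to exactly 0. Labelling used 250 ng of total RNA, per the labels' protocols.

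The platform annotation gave exactly 1 symbol to 21789 of 35556 probe sets, several to 1621 and none here to 12146. Gene identifiers of the GRCm38.p6 table matched 21698 and altered 0 symbols. Values of a gene with more than 1 probe set (999 genes) were averaged, giving 19938 genes. Differences, counts and distances were computed with Python 3.11.15, pandas 2.3.3 and numpy 2.4.6, and the filter and size rule were tested on simulated data. The planted changes lay past the 2-fold rule in bright genes, so genes near the cutoff or the median were not covered. No test was possible with 1 array per group. Upstream sequences came from RefSeq on GRCm38.p6. Scanner files were not used, so probes were not set against their background.

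The members, gene lists, size rule and alternatives were chosen with earlier results of these data known. Named genes were the members, the other aquaporins and up to 3 genes with the largest difference from control in each list described. Also named were the 5 genes nearest to Aqp2, Aqp1 and Avpr2, and the 2 neighbours on each side of Aqp2. Those before Aqp2 had no probe set of their own here. Others are marked in the text.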

Additional observations from a re-analysis of the deposited data

How the results depend on the processing

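The counts over all genes, over members and over each list were computed again without the filter, with a filter at the 25th percentile, with both values at the median or above, with arrays centred on their medians, with the deposited values quantile-normalized once more, with the brightest probe set of a gene and with a 1.5-fold rule. The repeats over lists were chosen after seeing the data. They took in a list of liver and pancreas genes that is not described above. Members' differences were computed again only under the settings that change values. The number of members 2-fold different between NTS/PGE2 and NTS was 3 in place of 5 where both values had to reach the median, because Aqp4 and Avpr2 were under it on the NTS array. For NTS against control it was 5 in place of 7 for the same reason. Under that filter the number of genes 2-fold different between NTS/PGE2 and control was 46 in place of 83. With the 1.5-fold rule the counts of genes were 2304 in place of 956 for NTS against control, 2212 in place of 870 for NTS/PGE2 against NTS and 312 in place of 83 for NTS/PGE2 against control. With quantile normalization 6 members passed the rule for NTS/PGE2 against NTS, since Aqp6 reached 1.01, and 6 in place of 7 for NTS against control. The other counts of genes and members were within 1.5 times the reported ones. Of 42 list counts, 18 differed by more than 1.5 times with the 1.5-fold rule, 5 where both values had to reach the median and 1 with median centring; the other settings moved 0. Where both values had to reach the median, the fat count was 2 in place of 8 for NTS/PGE2 against control and 4 in place of 9 for NTS against control, the urothelium count was 2 in place of 6 in both, and the cAMP signalling count was 0 in place of 1 for NTS against control. With median centring 1 principal cell gene in place of 0 was 2-fold lower in NTS/PGE2 than in control. Centring on the array medians and quantile normalization moved none of the 27 member differences by more than the probe set SD, though Aqp7 turned to just under 0 for NTS/PGE2 against control with median centring. Each member has 1 probe set, so taking the brightest could not move its values. Centring on tubule genes moved 18 of the 27, all for NTS against control or NTS/PGE2 against NTS, with values beside the marker genes. Centring shifts every member of a comparison alike, so whether all or none moved was set by the size of that shift. No paired analysis was possible because each group has 1 array, and no array could be left out for the same reason, the control array with its fat genes included. Dim values, such as those of Aqp8, limit what these arrays can show.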
